A study of Mus musculus with 20 samples.

Results

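The transcripts described here encode proteins that work with the TET enzymes: the O-GlcNAc transferase Ogt, its substrate and partner Hcfc1, the corepressor scaffold Sin3a, the poly(ADP-ribose) polymerase Parp1, the CXXC zinc finger proteins Cxxc4 and Cxxc5, and the isocitrate dehydrogenases Idh1 and Idh2. They were chosen by name as known TET partners or as enzymes that make the TET co-substrate, and all 8 were found among the 23284 genes listed in each of 20 libraries. Of the 8, 7 passed the filter on low counts and entered the tests. Cxxc4 did not pass it.

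TET proteins are iron-dependent dioxygenases that oxidise 5-methylcytosine to 5-hydroxymethylcytosine in DNA, and Tet2 also acts on RNA. They consume 2-oxoglutarate, which Idh1 makes in the cytosol and peroxisomes and Idh2 makes in mitochondria. Ogt binds TET proteins and, through them, modifies Hcfc1, a subunit of SET1 histone methyltransferase complexes, while Sin3a joins Tet1 at repressed promoters. Tet2 arose from an ancestor that carried its own CXXC domain, and Cxxc4 is now a separate neighbouring gene whose protein, like Cxxc5, can bind Tet2.

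The libraries came from RNA immunoprecipitation (RIP) in mouse embryonic stem cells (ESCs). The 3 genotypes were made by CRISPR knock-in at the endogenous genes: Tet1-KI, with tagged Tet1 (2 IP and input pairs), Tet2-KI, with tagged Tet2 (4 pairs), and Tet2dRBD-KI, with tagged Tet2 that lacks its RNA-binding domain (4 pairs). All 3 lines were otherwise wild type, were grown on gelatin with serum and leukaemia inhibitory factor, and carried the same C-terminal Flag, HA and Twin-Strep tags. Each line was derived from picked clones, whose number is not stated. The study describes its RIP-seq as done in biological duplicate or more, and the labels do not say which libraries came from separate cultures, so part of the spread behind the p-values may be technical. The IP used an anti-Flag antibody on cytoplasmic extract, whereas the extraction protocol given for the libraries names total RNA. A difference between IP and input can therefore also hold a difference between those RNA fractions, and the IgG control precipitations of the study were not analysed here.

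The libraries held 21078995 to 37576638 expected counts (median 25517290). The names of the deposited tables place them in 3 library sets. Both Tet1 pairs lie in 1 set with pairs 3 and 4 of Tet2 and Tet2dRBD. Of the other sets, 1 holds the pairs of Tet2 and Tet2dRBD numbered 1, and 1 those numbered 2. Below, pairs or inputs numbered 1 or 2 are those of Tet2 and Tet2dRBD. All 6 ESC markers were present in every input, at a summed 12770 to 16350 TPM (a level scaled to transcript length and library depth). The 6 fibroblast markers summed to 12.38 to 64.38 TPM. Thy1 had the highest median of them, at 8.43 to 35.8 TPM, and Col1a1 reached 17.8 TPM. Postn was at 0 in some inputs, and the others were above 0 in every input. The 6 primitive endoderm markers were all above 0 and summed to 46.45 to 48.32 TPM in Tet1, 12.47 to 120.3 in Tet2 and 60.9 to 153.4 in Tet2dRBD. Tet1 and Tet2 themselves lay at 8.54 to 17.2 and 2.49 to 9.21 TPM in the inputs, and a level per gene cannot show the tag or the deleted domain.

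The study described a UC-rich motif at its 5hmC sites, so the coding sequences of the 8 genes were searched for the pentamer TCCTC on the sense strand, a choice made after the RIP values were known. The study placed most 5hmC sites, and preferred Tet1 and Tet2 binding, in introns, which the search did not cover. Coding stretches of 30 bases are shown for Sin3a and Parp1, which lay above input in all 10 pairs, for Hcfc1, which had the most matches (12), and for Idh1, which was lower in IP. Each is the stretch within 1 exon with the most matches and, among those, the most pyrimidines. Capitals mark the pentamer, and the stretch of Idh1 holds none.
Sin3a, chr9:56943333-56943362, plus strand: cagctcccactcctgctcagccagcTCCTC
Parp1, chr1:182509419-182509448, plus strand: tcagctcaagggctttagccTCCTCtctgc
Hcfc1, chrX:71204542-71204571, minus strand: ccTCCTCcatgTCCTCggcttggacatagc
Idh1, chr1:65212777-65212806, minus strand: ctttgcacacagttccttccaaatggctct
The coordinates are those of mouse build mm9, and the letters are from the GENCODE transcripts of that build. Of coding stretches of 30 bases laid end to end without overlap, 4.04% held the pentamer and 0.234% held it more than once. The stretches shown were picked for their matches, so these shares do not say how rare they are. Sin3a had 0.52 matches per kb, Parp1 1.64, Hcfc1 1.91 and Ogt 0.318, against a median of 1.41 over 21036 coding sequences. Cxxc5, Idh1 and Idh2 had no match, while 78.8% of coding sequences had at least 1. Cxxc4 had 11.7 matches per kb, the 99.9th percentile, in a coding sequence of 597 bases. Sin3a, with the highest mean IP ratio of the 8 in each line, lay under the median density. A match or its absence in these letters is a description and shows no binding site.

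Parp1, which adds ADP-ribose chains at DNA breaks, was the most abundant of the 8 transcripts in input RNA, with a mean of 226 TPM over 10 inputs (SD 134.4). Idh2 averaged 160.8 TPM (SD 59.78), Idh1 82.75 (SD 31.86), Cxxc5 52.4 (SD 12.17) and Hcfc1 51.57 (SD 23.32). Sin3a averaged 19.94 TPM (SD 6.614) and Ogt 17.08 (SD 3.439). Hcfc1 lay above Sin3a with no overlap of their ranges (31.3 to 100.8 against 7.03 to 30.38 TPM), and every other neighbour in this order down to Ogt overlapped. Cxxc5 exceeded Hcfc1 in 6 of 10 inputs and Parp1 exceeded Idh2 in 8, so these neighbours had no fixed order.

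**Figure D1:**
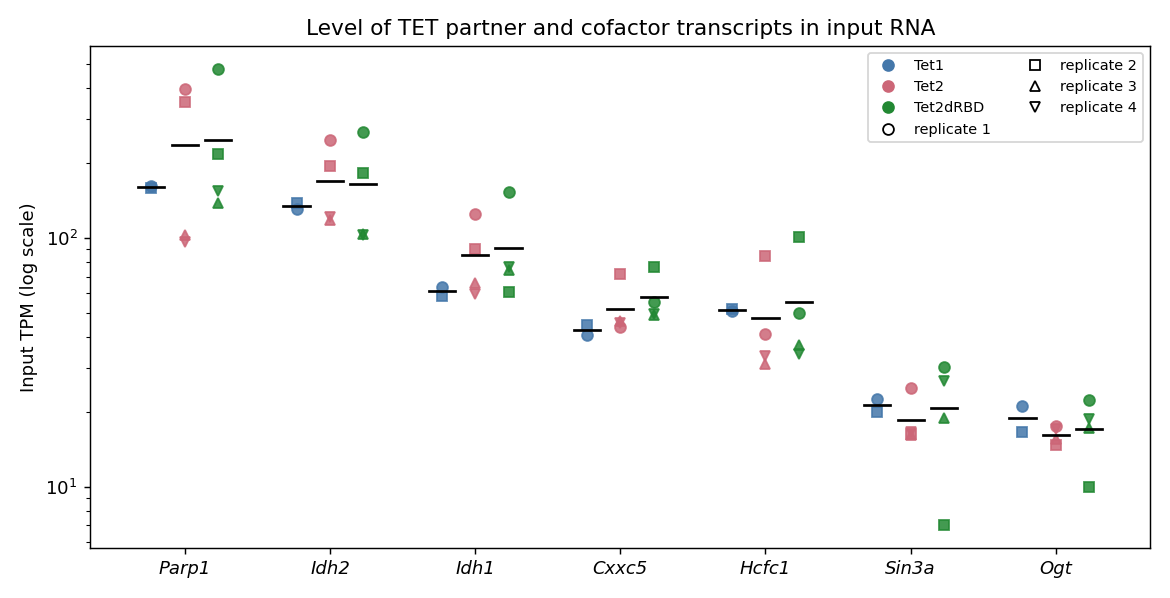
Input TPM (log axis) of 7 transcripts in each of the 10 input libraries, with colour for the line, shape for the replicate number and a bar at the mean of each line. The mean of Parp1 lies highest and those of Sin3a and Ogt lowest in each line, although Idh2 exceeds Parp1 in Tet2 replicates 3 and 4, and the spread within Tet2 and Tet2dRBD is larger than the distance between the means of the lines.

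Cxxc4 was close to absent. Its input level was 0 to 0.02 TPM, and the 12 libraries with any count held at most 3 expected counts each. No ratio of IP to input can be read at that depth. Ogt, the next lowest, never fell under 9.94 TPM.

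No member's input level was called different between lines when all 10 inputs were fitted on line alone, but calls appeared once the library set was taken into account. The question was whether the partner transcripts were equally present in the 3 lines from which the IPs were made. With edgeR (quasi-likelihood fit, p-values adjusted by Benjamini-Hochberg over 13310 genes), 0 of 7 members differed between Tet2 and Tet2dRBD, where 0.0% of all genes were called (340 at an unadjusted p under 0.05, none of them a member). Between Tet1 and Tet2, 0 of 7 were called against 0.406% of all genes (1212 at an unadjusted p under 0.05, again none of them a member). The median difference of the 7 on the log2 scale was -0.09 for Tet2 minus Tet2dRBD and -0.32 for Tet1 minus Tet2, against -0.04 and -0.02 over all genes. The Tet1 inputs lie in 1 library set, and the Tet1 minus Tet2 median turned to 0.10 with library set as a block and to 0.09 within that set.

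For Parp1, Idh2, Idh1 and Hcfc1 the levels separated by library set rather than by line. Parp1 lay at 396.9 and 479.7 TPM in the inputs numbered 1, at 217.2 and 351.8 in those numbered 2, and at 96.3 to 162.6 in the 6 others. Idh2 showed the same order, at 248.4 and 267.7, then 183.1 and 194.2, then 103.2 to 138.1 TPM, and the 3 sets did not overlap for either gene. Idh1 was highest in the inputs numbered 1, at 125.3 and 152.9 TPM, and reached at most 90.04 elsewhere. Hcfc1 was highest in the inputs numbered 2, at 84.88 and 100.8 TPM, against at most 52.07 elsewhere. The summed primitive endoderm markers were also highest in the inputs numbered 1, at 120 and 153 TPM, and their part in these levels was not tested.

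Within the library set that holds Tet1, where each line has 2 inputs, the spread was smaller and 3 members were called. The labels do not say whether the 2 libraries of a line there are separate cultures. The SEs and p-values of every fit within this set, for IP as well, may therefore leave out spread between cultures. Hcfc1 measured 50.97 and 52.07 TPM in Tet1 and 31.3 and 33.51 in Tet2, a fitted log2 difference of 0.56 ± 0.0706 (SE, edgeR adjusted p = 0.000432). Parp1 measured 162.6 and 159.4 TPM in Tet1 and 102.9 and 96.3 in Tet2, a difference of 0.58 ± 0.0777 (adjusted p = 0.000574). Neither pair of groups overlapped, and 24.9% of all genes were called higher in Tet1 in that fit, so a call there is common. Against Tet2dRBD, Tet2 was lower for Parp1 by edgeR (-0.49 ± 0.0777, adjusted p = 0.00548, Tet2dRBD inputs 139 and 154.6 TPM) and higher for Idh2 (0.28 ± 0.0694, adjusted p = 0.0265), where 9.71% and 11.2% of all genes were called lower and higher. With the library set as a block in the fit of all 10 inputs, Hcfc1 was higher in Tet1 than in Tet2 by 0.65 ± 0.093 (edgeR adjusted p = 0.00127), where 17.5% of genes were called higher. Over all 10 inputs without that block the Parp1 difference of Tet1 and Tet2 had the opposite sign, -0.61 ± 0.68.

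The IP was next compared with the input of its own pair, the question being which partner transcripts were recovered with each tagged protein. The study counted a transcript as enriched where its IP value exceeded its input value in TPM + 1. By that rule, taken in every replicate of a line, 5 of 8 members were above input in Tet1 (Cxxc5, Idh2, Ogt, Parp1 and Sin3a), where 50.9% of all genes tested were. In Tet2 the members were Cxxc5, Parp1 and Sin3a, 3 of 8, against 46.5% of genes. In Tet2dRBD only Parp1 and Sin3a, 2 of 8, were above input in all 4 pairs, against 31.8% of genes. Of the 7 members tested these are 71.4%, 42.9% and 28.6%, above the share of genes in Tet1 and below it in the other lines. The median of the 11784 genes with a mean input of at least 1 TPM itself lay above 0 in every pair, by 0.01 to 0.38 on the log2 scale of TPM + 1, so the rule counts part of a shift that most genes shared.

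**Figure D2:**
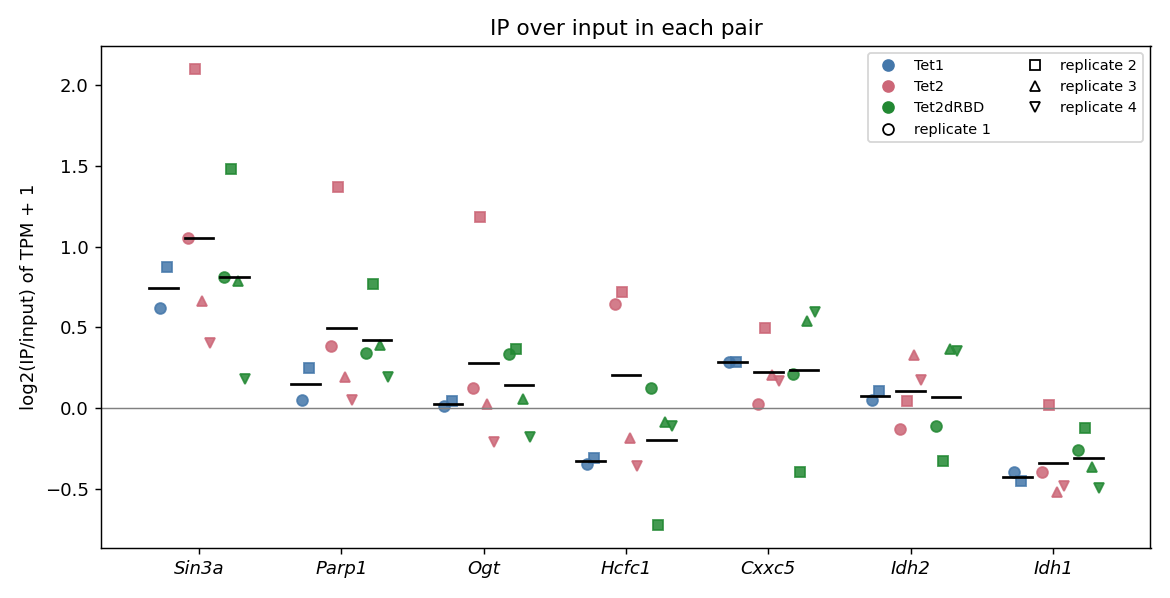
log2(IP/input) of TPM + 1 for 7 transcripts in each of the 10 pairs, with colour for the line, shape for the replicate number and a bar at the mean of each line. All points of Sin3a and Parp1 lie above 0, 9 of 10 points of Idh1 lie below it, and the pairs numbered 2 lie farthest out for several genes.

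In the count test, which scales the libraries to each other and therefore sets the typical gene near 0, 0 of 7 members were called in Tet1 at an adjusted p under 0.05, where 2.72% of 13710 genes were called higher and 3.18% lower. By an unadjusted p under 0.05, 2 members passed in Tet1 (Hcfc1 and Idh1), as did 3224 of the 13710 genes. In Tet2, 2 members passed in that way (Idh1 and Sin3a), against 6168 genes. In Tet2dRBD 3 did (Hcfc1, Idh1 and Sin3a), against 4858 genes. At the adjusted threshold, 1 member was called higher in Tet2 (Sin3a), where 14.6% of genes were, and 1 lower (Idh1), where 18.5% were. In Tet2dRBD, 1 was called lower (Idh1), against 12.1%, and 0 higher, against 7.4%. A single call among 7 members is a share near this background. The median fitted ratio of the 7 was -0.07 in Tet1, -0.09 in Tet2 and -0.12 in Tet2dRBD, against -0.04, 0.00 and -0.01 over all genes.

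Ogt, the only enzyme that places O-GlcNAc on nuclear and cytosolic proteins, stayed close to its input in most pairs. It measured 21.22 and 17.12 TPM in the Tet1 IPs against 21.05 and 16.6 in the inputs, and 28.47, 13.09, 17.96 and 16.46 against 22.42, 9.94, 17.23 and 18.79 in Tet2dRBD. In Tet2 it measured 19.15, 34.59, 15.81 and 14.58 TPM in the IPs against 17.49, 14.75, 15.52 and 17.03 in the inputs. The IP and input ranges overlapped in every line, and replicate 2 of Tet2 stood alone, with a log2 ratio of 1.18 where the other Tet2 pairs lay between -0.21 and 0.12. Its fitted log2 ratios by edgeR were -0.12 ± 0.254 in Tet1, -0.03 ± 0.182 in Tet2 and -0.12 ± 0.181 in Tet2dRBD (SE, adjusted p = 0.824, 0.914 and 0.655). Within the library set that holds Tet1, Ogt was lower in IP in Tet2 (-0.31 ± 0.0704, adjusted p = 0.00434) and in Tet2dRBD (-0.34 ± 0.0702, adjusted p = 0.00233), where 25.1% and 24.9% of genes were called lower.

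Hcfc1, which ties SET1 methyltransferase complexes to transcription factors, split by library set. It measured 39.86 and 41.82 TPM in the Tet1 IPs against 50.97 and 52.07 in the inputs, and IP lay below input without overlap. In Tet2 the IPs measured 64.68, 140.6, 27.41 and 25.96 TPM against inputs of 40.98, 84.88, 31.3 and 33.51. In Tet2dRBD they measured 54.6, 60.7, 34.77 and 31.64 against 49.99, 100.8, 37.02 and 34.22. All 6 pairs of the set with Tet1 were below input (log2 ratios -0.36 to -0.09), both pairs numbered 1 were above it, and the pairs numbered 2 lay on opposite sides (0.72 in Tet2 and -0.72 in Tet2dRBD). The fitted log2 ratio by edgeR was -0.48 ± 0.217 in Tet1 (adjusted p = 0.207), -0.11 ± 0.154 in Tet2 (adjusted p = 0.607) and -0.48 ± 0.154 in Tet2dRBD (adjusted p = 0.0506). The last passed the threshold when Tet2 replicate 2 or Tet2 replicate 4 was left out (adjusted p = 0.0378 and 0.0462). Within the set with Tet1, Hcfc1 was lower in IP in all 3 lines, by 0.52, 0.49 and 0.38 on the log2 scale in Tet1, Tet2 and Tet2dRBD (edgeR adjusted p = 5.67e-05, 7.74e-05 and 0.000403). There 27.2%, 25.1% and 24.9% of genes were called lower in these lines.

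Sin3a, the scaffold on which histone deacetylases are assembled into a corepressor, had the highest mean IP ratio of the 8 in each line and the highest ratio in 9 of 10 pairs. In the exception, Tet2dRBD replicate 4, Sin3a (0.18) lay below Cxxc5 (0.60), Idh2 (0.35) and Parp1 (0.19). It measured 35.18 and 37.4 TPM in the Tet1 IPs against 22.58 and 19.96 in the inputs. In Tet2 the IPs measured 52.95, 73.03, 26.05 and 22.29 TPM against 25.06, 16.26, 16.11 and 16.58. In Tet2dRBD they measured 53.97, 21.37, 33.19 and 30.28 against 30.38, 7.03, 18.83 and 26.58. IP was above input in all 10 pairs, as for 22.4% of genes, and above the median gene of its pair in all 10, as for 11.8% of genes, with the narrowest margin at 0.01. The IP and input ranges did not overlap in Tet1, while in Tet2 and Tet2dRBD the lowest IP lay below the highest input.

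The mean log2 ratio of Sin3a was 0.75 ± 0.181 in Tet1 (SD, n = 2), 1.05 ± 0.746 in Tet2 and 0.81 ± 0.53 in Tet2dRBD (SD, n = 4 each). The fitted ratio by edgeR was 0.77 ± 0.258 in Tet2 (SE, adjusted p = 0.0408), 0.63 ± 0.358 in Tet1 (adjusted p = 0.327) and 0.58 ± 0.258 in Tet2dRBD (adjusted p = 0.136). The Tet2 call was lost, by the same test, without Tet2 replicate 1 (adjusted p = 0.0887), replicate 2 (0.14), replicate 3 (0.053) or Tet1 replicate 2 (0.0595). It was also lost when Tet2 was fitted alone (0.0537) and without the pair block (0.249). The ratio fell to 0.48 without replicate 2, whose own ratio of 2.10 was the highest value of any member. Within the set with Tet1, Sin3a was higher in IP in Tet1 (0.59 ± 0.106, adjusted p = 0.00111) and in Tet2 (0.35 ± 0.108, adjusted p = 0.0195), where 19.6% and 24.7% of genes were called higher, with 0.23 ± 0.106 in Tet2dRBD (adjusted p = 0.105).

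Parp1 was also above input in all 10 pairs, but by less, with log2 ratios between 0.05 and 1.37. It measured 168.8 and 189.7 TPM in the Tet1 IPs against 162.6 and 159.4 in the inputs. In Tet2 the IPs measured 518.3, 911.4, 117.5 and 99.76 TPM against 396.9, 351.8, 102.9 and 96.3, and in Tet2dRBD 607, 370.1, 182.7 and 176.9 against 479.7, 217.2, 139 and 154.6. The Tet1 groups did not overlap, and in the other lines the differences between library sets were larger than those between IP and input. Relative to the median gene of its pair, Parp1 was above in 8 of 10 pairs. The fitted ratios by edgeR were 0.00 ± 0.252, 0.18 ± 0.18 and 0.15 ± 0.179 in Tet1, Tet2 and Tet2dRBD (adjusted p = 0.995, 0.464 and 0.588), and those within the set with Tet1 lay between -0.09 and 0.02. On the TPM scale, limma called Parp1 higher in the Tet2 IP, at 0.50 ± 0.183 (adjusted p = 0.0459). That fit called 4801 of 13710 genes higher, and its median ratio over all genes was 0.23, so a call there is common.

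Cxxc5, a CXXC zinc finger protein that recognises unmethylated CpG, was above input in 9 of 10 pairs, with Tet2dRBD replicate 2 as the exception at -0.39. It measured 49.73 and 54.71 TPM in the Tet1 IPs against 40.69 and 44.62, with no overlap. In Tet2 the IPs measured 44.91, 100.9, 53.87 and 51.48 TPM against 44.06, 71.4, 46.5 and 45.77, and in Tet2dRBD 64.32, 58.3, 71.57 and 75.59 against 55.48, 76.84, 48.93 and 49.7. These ranges overlapped, and only 7 of 10 pairs lay above the median gene. By edgeR the fitted ratios were 0.14 ± 0.19, -0.09 ± 0.134 and -0.03 ± 0.135 in Tet1, Tet2 and Tet2dRBD (adjusted p = 0.705, 0.632 and 0.879). Within the set with Tet1 the Tet2dRBD ratio turned to 0.30 ± 0.0662 (adjusted p = 0.00371), where 24.2% of genes were called higher.

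Idh1, the NADP-dependent enzyme that makes 2-oxoglutarate in the cytosol, was the member most steadily lower in IP. It measured 47.99 and 42.69 TPM in the Tet1 IPs against 63.56 and 58.68 in the inputs. In Tet2 the IPs measured 95.02, 91.41, 45.77 and 42.64 TPM against 125.3, 90.04, 65.86 and 59.87. In Tet2dRBD they measured 127.7, 55.82, 57.39 and 53.74 against 152.9, 60.94, 74.16 and 76.17. IP was below input in 9 of 10 pairs, the exception being Tet2 replicate 2 at 0.02, and below the median gene of the pair in all 10, as for 13.1% of genes. The Tet1 groups did not overlap, and the ranges of the other lines did.

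The mean log2 ratio of Idh1 was -0.42 ± 0.0366 in Tet1 (SD, n = 2), -0.34 ± 0.248 in Tet2 and -0.31 ± 0.158 in Tet2dRBD (SD, n = 4 each). By edgeR the fitted ratio was -0.67 ± 0.11 in Tet2 (SE, adjusted p = 0.00165) and -0.59 ± 0.111 in Tet2dRBD (adjusted p = 0.00598). In Tet1 it was -0.58 ± 0.156 (adjusted p = 0.0541). The Tet2 and Tet2dRBD calls held without any 1 pair (adjusted p at most 0.019 and 0.0381). Without the pair block they were lost (0.326 and 0.576), and the Tet2dRBD call was lost when that line was fitted alone (0.0541). The Tet1 ratio passed the threshold without Tet2 replicate 2 (adjusted p = 0.0278), Tet2dRBD replicate 2 (0.0219) or Tet2dRBD replicate 4 (0.0431). Within the set with Tet1, Idh1 was lower in IP in all 3 lines, by 0.62, 0.72 and 0.72 in Tet1, Tet2 and Tet2dRBD (edgeR adjusted p = 4.39e-05, 1.42e-05 and 1.36e-05). In that fit 27.2%, 25.1% and 24.9% of genes were called lower in these lines.

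**Figure D3:**
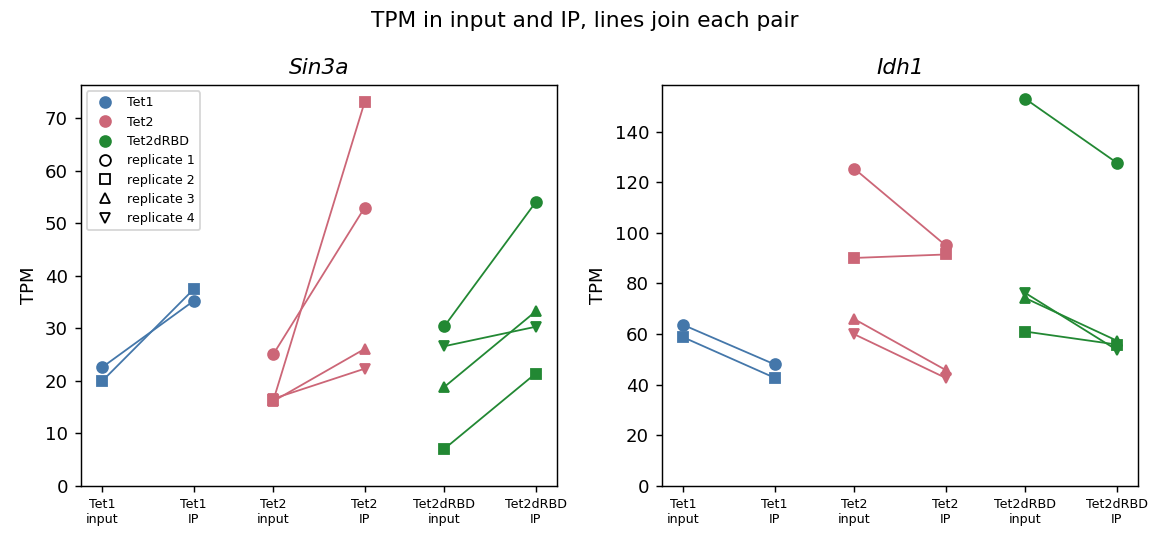
TPM of Sin3a (left) and Idh1 (right) in the input and IP of each pair, joined by a line, with colour for the line and shape for the replicate number; both axes start at 0. Every Sin3a line rises, most steeply in Tet2 replicate 2, and every Idh1 line falls except that of Tet2 replicate 2.

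Idh2, the mitochondrial counterpart of Idh1, did not share its pattern. It measured 135.2 and 148.5 TPM in the Tet1 IPs against 130.5 and 138.1 in the inputs. In Tet2 the IPs measured 226.9, 200.5, 148.1 and 137.1 TPM against 248.4, 194.2, 117.9 and 121.2, and in Tet2dRBD 248.3, 146, 133.7 and 132 against 267.7, 183.1, 103.5 and 103.2. All 6 pairs of the set with Tet1 lay above input (log2 ratios 0.05 to 0.37). Pair 1 of Tet2 and pair 1 of Tet2dRBD lay below it (-0.13 and -0.11). The IP and input ranges overlapped in each line. The fitted ratios by edgeR were -0.07 ± 0.194, -0.21 ± 0.137 and -0.20 ± 0.138 in Tet1, Tet2 and Tet2dRBD (adjusted p = 0.872, 0.253 and 0.31). Over the 10 pairs the log2 ratios of Idh1 and Idh2 correlated at -0.58.

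**Figure D4:**
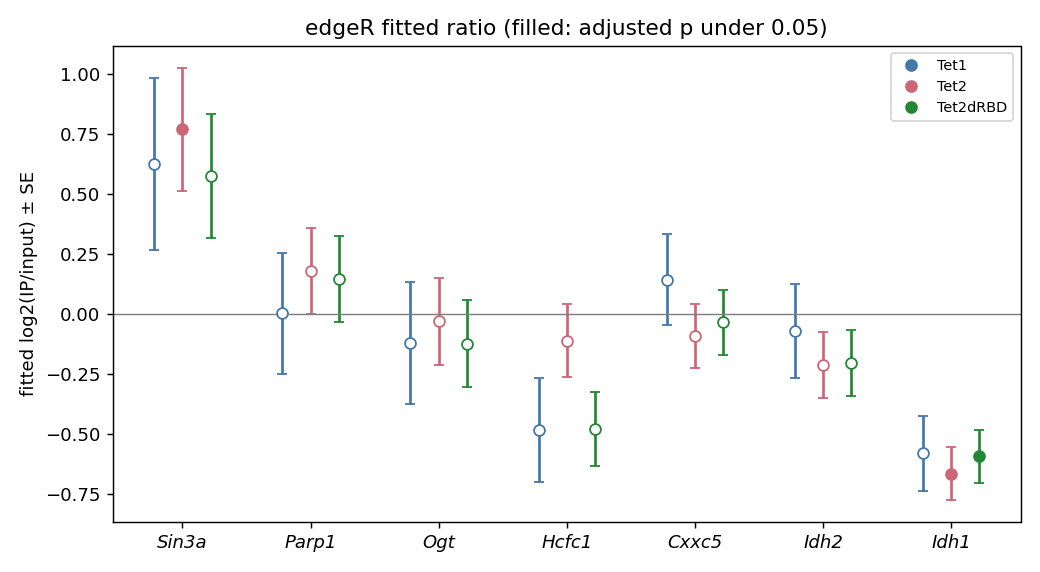
Fitted log2(IP/input) from edgeR with its standard error for 7 transcripts in Tet1, Tet2 and Tet2dRBD; filled points have an adjusted p under 0.05. The filled points are Sin3a in Tet2 (0.77) and Idh1 in Tet2 (-0.67) and Tet2dRBD (-0.59).

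For Ogt, Cxxc5 and Idh2 the sign of a line's ratio depended on the scale. Their mean ratios of TPM + 1 were above 0 in all 3 lines (Ogt 0.03, 0.28 and 0.14; Cxxc5 0.29, 0.22 and 0.24; Idh2 0.08, 0.11 and 0.07 in Tet1, Tet2 and Tet2dRBD), while the fitted ratios were below 0 in every line except Cxxc5 in Tet1. Hcfc1 in Tet2 changed likewise, from 0.21 to -0.11. Sin3a was above 0 and Idh1 below 0 in all 3 lines on both scales. Parp1 was above 0 in Tet2 and Tet2dRBD on both, but its fitted ratios in Tet2 and Tet2dRBD were -0.05 and 0.00 with both pairs numbered 2 left out, and in Tet1 it was 0.00, with no sign to read.

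Whether the RNA-binding domain mattered for these transcripts was tested as the IP ratio in Tet2 minus that in Tet2dRBD. By edgeR 0 of 7 members passed (each adjusted p = 1.0), where 0.0219% of all genes did. At an unadjusted p under 0.05 there were 416 genes, and 0 of 7 members were among them. Sin3a differed by 0.19 ± 0.363, Idh1 by -0.07 ± 0.156 and Hcfc1, the largest of the 7, by 0.37 ± 0.217 (SE). A p that misses the threshold does not show that the ratios were alike, and 0 of 7 members passed under any of the 10 alternatives, DESeq2 included. Within the set with Tet1 the Sin3a difference was 0.13 ± 0.151 and that of Idh1 0.00 ± 0.0915 (edgeR adjusted p = 0.732 and 0.997). There Hcfc1 turned to -0.11 ± 0.0829 and Cxxc5 had the largest difference, -0.32 ± 0.0938 (edgeR unadjusted p = 0.00672, adjusted p = 0.225). Tet1 minus Tet2 likewise gave 0 of 7, where 0.0% of genes were called (517 genes had an unadjusted p under 0.05 and none was a member; DESeq2 also called 0 of 7), with Hcfc1 at -0.37 ± 0.266 and Cxxc5 at 0.23 ± 0.233. Within the set with Tet1 these were -0.03 ± 0.0826 and 0.13 ± 0.0946.

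The ratios of several members rose and fell together across the 10 pairs. Pearson correlations of log2(IP/input) were 0.95 for Ogt and Parp1, 0.94 for Sin3a and Parp1, 0.93 for Ogt and Sin3a, and 0.91 for Sin3a and Idh1, although Sin3a was higher and Idh1 lower in IP. Cxxc5 and Idh2 formed a separate pair at 0.79, and neither correlated with Sin3a above 0. These are descriptions over pairs that share a line, a library set and a depth, and the highest ratios of Ogt, Sin3a, Parp1 and Idh1 all came from replicate 2 of Tet2. Among 8467 genes with a mean input of at least 5 TPM, the ratios most like those of Sin3a were those of Taf5 and Nol10 (0.99 each), and those most like Idh1 were Impact and Atl2 (0.98 each).

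The other genes of the same pathways were counted in 6 lists of 68 genes, of which 67 were tested. In Tet2, 13 were higher and 12 lower in IP (19.4% and 17.9%, against 14.6% and 18.5% of all genes). In Tet2dRBD 6 and 11 were (8.96% and 16.4%, against 7.4% and 12.1%), and in Tet1 0 and 4 (0.0% and 5.97%, against 2.72% and 3.18%). Their median fitted ratio was 0.02 in Tet2, 0.00 in Tet2dRBD and -0.07 in Tet1, against 0.00, -0.01 and -0.04 over all genes. The lists are described only, and no list was tested as a set. The difference between Tet2 and Tet2dRBD passed for 0 of 67, and that between Tet1 and Tet2 for 0 of 67.

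Of the 22 other genes of 2-oxoglutarate metabolism, 3 were higher and 7 lower in IP in Tet2 (13.6% and 31.8%, against 14.6% and 18.5% of all genes; median -0.14 against 0.00). In Tet2dRBD 1 and 6 were (4.55% and 27.3%, against 7.4% and 12.1%), and in Tet1 0 and 2 (0.0% and 9.09%, against 2.72% and 3.18%). Ogdh, the subunit of the 2-oxoglutarate dehydrogenase complex that consumes the metabolite, measured 54 ± 23 TPM in the Tet2 IPs and 93 ± 30.9 in the inputs (SD, n = 4), and its fitted ratio was -1.10 ± 0.225 (SE, edgeR adjusted p = 0.00463). Sdhd, a membrane anchor of succinate dehydrogenase, measured 230 ± 18.9 TPM against 316 ± 17.5 in the Tet2 inputs and was below input in all 10 pairs. It passed in every line, at -0.78, -0.64 and -0.59 in Tet2, Tet2dRBD and Tet1 (edgeR adjusted p = 0.000406, 0.00216 and 0.0373).

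Of the 16 other SIN3 complex genes, 4 were higher and 3 lower in Tet2 (25% and 18.8%, against 14.6% and 18.5% of all genes), with a median of 0.00. In Tet2dRBD 1 and 3 were (6.25% and 18.8%, against 7.4% and 12.1%), and in Tet1 0 and 1 (0.0% and 6.25%, against 2.72% and 3.18%). Hdac2, a deacetylase of the complex, was above input in all 10 pairs and rose in Tet2 by 0.84 ± 0.291 (edgeR adjusted p = 0.0461), close to the value of Sin3a. Sap18, a small subunit, fell by 1.17 in Tet2, with 6.06 ± 0.268 TPM in the IPs and 11 ± 1.2 in the inputs (SD, n = 4, edgeR adjusted p = 0.000178). It fell as well in Tet2dRBD (-0.98) and Tet1 (-0.66, adjusted p = 0.0495). Subunits of 1 complex thus moved in opposite directions.

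Of 8 other ADP-ribosylation genes, 3 were higher and 0 lower in Tet2 (37.5% and 0.0%, against 14.6% and 18.5% of all genes) and 2 and 0 in Tet2dRBD (25% and 0.0%, against 7.4% and 12.1%), with none called in Tet1. The median of this list was 0.43 in Tet2, 0.31 in Tet2dRBD and 0.42 in Tet1, against 0.00, -0.01 and -0.04 over all genes. Parp2, the paralog of Parp1, rose by 1.06 ± 0.214 in Tet2 (edgeR adjusted p = 0.00431) and by 0.78 ± 0.214 in Tet2dRBD (adjusted p = 0.0295), with 1.12 ± 0.302 in Tet1 (adjusted p = 0.0529), and was above input in all 10 pairs. Parg, which degrades the ADP-ribose chains, rose in Tet2 by 0.59 ± 0.192 (adjusted p = 0.0363).

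Of 7 other CXXC domain genes, 2 were higher and 0 lower in Tet2 (28.6% and 0.0%, against 14.6% and 18.5% of all genes), and 1 and 0 in Tet2dRBD (14.3% and 0.0%, against 7.4% and 12.1%). Dnmt1, the maintenance DNA methyltransferase, gave 0.91 ± 0.283 in Tet2 (edgeR adjusted p = 0.0303), although its IP level of 148 TPM had an SD of 200 over 4 libraries. Fbxl19, a CpG-binding F-box protein, rose by 0.59 ± 0.113 in Tet2 and by 0.38 ± 0.113 in Tet2dRBD (adjusted p = 0.00341 and 0.0386). Of 6 other O-GlcNAc genes, Gnpnat1, which makes a precursor of the Ogt donor sugar, fell in Tet2 by 1.14 (adjusted p = 0.000248) and in Tet2dRBD by 0.85 (adjusted p = 0.00216). It was the only O-GlcNAc gene called in Tet2, while in Tet2dRBD Uap1, which makes the donor sugar itself, was called higher (0.47 ± 0.15, edgeR adjusted p = 0.049). These calls were 16.7% of the list lower in Tet2 and 16.7% in each direction in Tet2dRBD. Over all genes, 18.5% were called lower in Tet2, and 7.4% higher and 12.1% lower in Tet2dRBD. Of the 8 other HCF1 and SET1 complex genes tested, Dpy30, a core subunit, fell by 1.11, 0.75 and 0.85 in Tet2, Tet2dRBD and Tet1 (edgeR adjusted p = 0.000784, 0.0107 and 0.0493). The other called gene of that list was Hcfc2, the paralog of Hcfc1, higher in Tet2 (0.59 ± 0.171, edgeR adjusted p = 0.0229) at a mean input of 1.63 TPM. Each call was 12.5% of the list tested, against 14.6% of all genes called higher and 18.5% lower in Tet2. In Tet2dRBD and Tet1, 12.1% and 3.18% of all genes were called lower. Uap1 and Hcfc2 were chosen for naming after their values were seen.

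**Figure D5:**
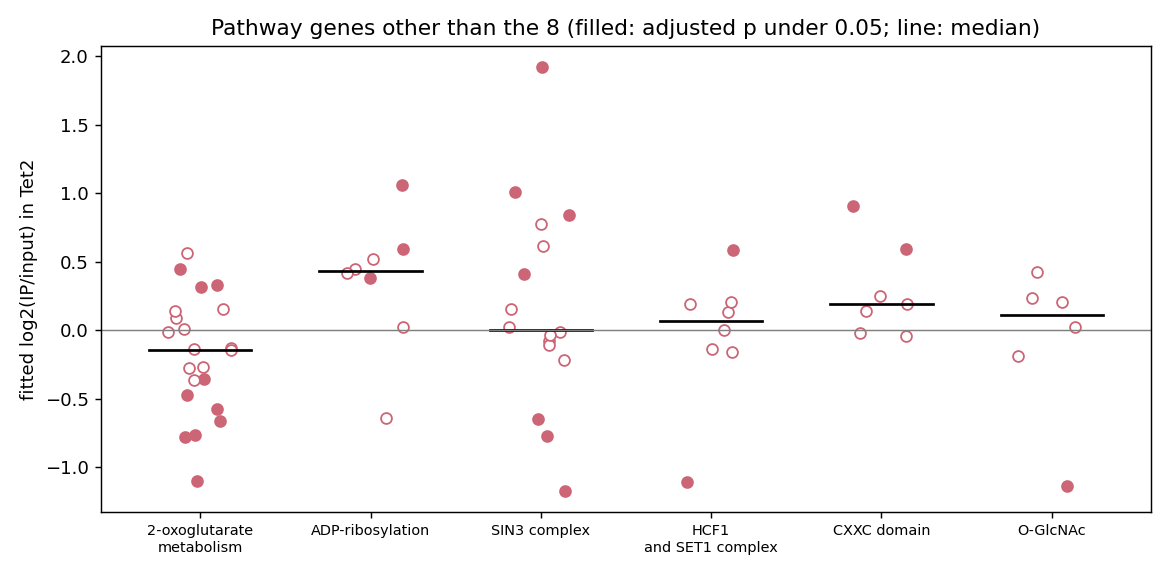
Fitted log2(IP/input) in Tet2 for the genes of 6 pathway lists other than the 8 members, 1 point per gene, with a line at the median of each list; filled points have an edgeR adjusted p under 0.05. The called points of the ADP-ribosylation list all lie above 0, most of those of 2-oxoglutarate metabolism lie below it (7 of 10), and the SIN3 complex list holds both (4 above and 3 below).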

How the data were processed

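The authors filtered the reads, trimmed them with Trimmomatic and mapped them to mm9 with RSEM and RefSeq transcripts (tools also listed in the submitters' processing notes with Bowtie2 and FastQC). RSEM versions are not given in the sources used here. The deposited tables, 1 per library, hold expected counts per gene, which were rounded to whole numbers for testing, and TPM to which the authors added a pseudocount of 1. That 1 was subtracted to give the TPM printed here. FPKM columns were not used.

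Expected counts were fitted with edgeR 4.0.16 (R 4.3.3, TMM scaling, genes with at least 1 CPM in at least 2 libraries, quasi-likelihood test, Benjamini-Hochberg adjustment over all genes tested, threshold 0.05), with each pair of IP and input as a block, 1 IP effect per line and 7 residual degrees of freedom. The pairing follows the study's own use of the numbers. As a check, log2 of TPM + 1 was expressed per gene as the deviation from the mean of the IPs or inputs of its line. Deviations of same-numbered IPs and inputs correlated at 0.58 to 0.86 in Tet2 and Tet2dRBD. Differently numbered ones spanned -0.70 to 0.78 in Tet2 and -0.74 to 0.69 in Tet2dRBD. In Tet1, with 2 pairs, the values were 0.18 and -0.18, which are equal and opposite by construction. Inputs were fitted on line alone. The SE printed for edgeR was derived from its test, as the absolute log2 ratio divided by the square root of the F statistic. Replicates 3 and 4 of a line were alike but differed beyond counting noise (mean chi-square per gene 2.83 to 17.4). The Tet1 replicates, in the same library set, gave 8.03 for input and 7.97 for IP. Replicates 1 and 2 of Tet2 and Tet2dRBD, from different sets, lay much farther apart, at 317 to 582. Fits within the set with Tet1 thus rest on the closest replicates. Alternatives used DESeq2 1.42.0, limma 3.58.1 on log2 of TPM + 1, other scalings, filters and subsets. The edgeR, DESeq2 and limma fits were also run on simulated data, and the outcome is not reported here.

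The 8 members and the 6 pathway lists were chosen with earlier results of these data known. Named pathway genes are those called in Tet2 with the 2 largest ratios per list and at least 5 TPM in Tet2.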

Additional observations from a re-analysis of the deposited data

Results flagged for a closer look

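In 42 groups of 4 values, 6 levels stood apart from the other 3 values of their group. The rule flags about 1 in 20 where the 4 values are independent. That rate does not apply here, because replicates 3 and 4 share a library set and were alike. For Cxxc5 and Idh1 the input and the IP of 1 pair were both flagged, so the 6 are a description. Sin3a in the Tet2 inputs was 25.06 TPM in replicate 1 and 16.11 to 16.58 in the others. Cxxc5 in Tet2 replicate 2 was 71.4 TPM in input (others 44.06 to 46.5) and 100.9 in IP (others 44.91 to 53.87). In Tet2dRBD replicate 1, Idh1 was 152.9 TPM in input (others 60.94 to 76.17) and 127.7 in IP (others 53.74 to 57.39), and Idh2 was 248.3 TPM in IP (others 132 to 146). All 6 lay in pairs numbered 1 or 2, which belong to other library sets than pairs 3 and 4.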

How the results depend on the processing

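Of the 7 tested members, 0 were called in the Tet1 IP, but 1 by DESeq2, 4 when Tet1 was fitted alone, 3 within the library set with Tet1, 2 with both pairs numbered 2 left out (an alternative chosen after seeing the data), and 0 to 1 when single pairs were left out. Over all genes in Tet1, DESeq2 called 841 higher and 737 lower of 13710, and the fit of Tet1 alone 3602 and 3383 of 12691. Within the set, 19.6% were called higher and 27.2% lower, and with the pairs numbered 2 left out 1198 and 1657 of 13639. In the Tet2 IP the 2 calls became 0 without the replicate block, 1 when Tet2 was fitted alone, 4 within the set with Tet1, 3 by limma with either pseudocount (Parp1 added), 3 with both pairs numbered 2 left out (Ogt added) and 1 to 2 with single pairs left out. In Tet2, limma with a pseudocount of 1 called 4801 of 13710 genes higher and 1113 lower. The fit of Tet2 alone called 1781 and 2062 of 13231. Within the set the shares were 24.7% and 25.1%, and without the pairs numbered 2 the counts were 2361 and 2856 of 13639. In the Tet2dRBD IP the 1 call became 2 by limma with either pseudocount (1 or 0.1), 0 without the replicate block, 0 when the line was fitted alone, 4 within the set with Tet1 and 1 to 2 with single pairs left out. There limma with a pseudocount of 1 called 3224 of 13710 genes higher and 629 lower. Within the set the shares were 24.2% and 24.9%. Without the pair block, edgeR's adjusted p in Tet2 was 0.326 for Idh1 and 0.249 for Sin3a. For inputs, Tet2 against Tet2dRBD gave 2 calls within the set, and Tet1 against Tet2 gave 2 within it and 1 (Hcfc1) with library set as a replicate block. The count above input in every replicate, taken over all members with Cxxc4 included, went from 5 to 1 in Tet1 at 1.5 times input and 3 when centred on the pair median. In Tet2 it went from 3 to 0 at 1.5 times, 1 when centred and 6 without the replicate block. In Tet2dRBD it went from 2 to 0 at 1.5 times and 6 without the block, with Cxxc4 among the 6. With single pairs left out these counts ranged over 5 to 6, 3 to 4 and 2 to 3. The share of all genes under these altered rules was not counted. The altered counts therefore show how the rule behaves and cannot be read against a background. The 6 in Tet1 also held Cxxc4, whose ratio cannot be read at its depth. The fitted ratio of Cxxc5 in Tet2dRBD turned to 0.30 within the set with Tet1, and the input difference of Parp1 between Tet1 and Tet2 to 0.58. The causes were not tested. Of 966 values of single members under alternatives, 927 kept their direction or stayed uncalled, 9 lost a call, 28 gained one and 2 were reversed. A change of sign between values uncalled in both fits (109) is counted among the 927 and not as a reversal. Few values were called in the main fits, so the 927 do not measure how often a call held. Cxxc4 could not be tested at its depth.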
